A study of Mus musculus with 53 samples.

Results

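The carbonic anhydrase genes were examined in 4 brain regions of a mouse model of spinocerebellar ataxia type 3 (SCA3), an inherited ataxia caused by a lengthened CAG repeat in the ATXN3 gene. Members were chosen by symbol: every row of the count table named Car followed only by digits, with an optional final letter. This gave 11 members among 12372 genes: Car2, Car4, Car5b, Car7, Car8, Car10, Car11, Car12, Car13, Car14 and Car15. The table holds genes selected by the authors on a mean above 4 CPM (counts per 1000000 counts of the library) over all libraries. The members nearest to that threshold were Car13 (5.04 CPM), Car5b (6.62 CPM) and Car15 (10.3 CPM), while Car1, Car3, Car5a, Car6 and Car9 were not analysed here. The family was proposed with the change of Car2 in these mice already known, so the SCA3 values of Car2 are given as a description, without a p-value, and counts of calls that include Car2 are no support for its change.

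Carbonic anhydrases convert carbon dioxide and water into bicarbonate and protons, and back. The active forms hold a zinc ion with a set of histidines, and they differ mainly in where they work: Car2, Car7 and Car13 in the cytosol, Car5b in mitochondria, and Car4, Car12, Car14 and Car15 at the cell surface. Car8, Car10 and Car11 are carbonic anhydrase-related proteins without known enzyme activity. Car8 binds the IP3 receptor Itpr1 and is best known from Purkinje cells, while Car10 and Car11 are secreted ligands of neurexins. In the brain Car2 is a classic product of oligodendrocytes, the cells that make myelin.

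The groups were male mice of 74 to 77 weeks on a C57BL/6 background. SCA3 mice were MJD84.2 hemizygous animals, which carry the whole human ATXN3 gene, its CAG repeat expanded, under its own promoter, active in all tissues, and also keep their mouse Atxn3 gene. Wild-type mice carried no transgene. RNA was sequenced from brainstem (8 wild-type mice, 6 SCA3), cerebellum (7, 6), cortex (7, 6) and striatum (8, 5), with 1 library per mouse and region.

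The 53 libraries held 31.7 to 76.7 M counts (M stands for 1000000), and no member had fewer than 42 counts in any library. Reads of the human transgene have no row of their own. Mouse Atxn3 was measured at 43.6 CPM in SCA3 against 43.4 CPM in wild-type brainstem, 37.1 against 34.4 in cerebellum, 48.4 against 43.9 in cortex and 58.0 against 46.2 in striatum. A group of 7 libraries stood apart in markers of a neighbouring tissue, lying more than 1 log2 unit above the median of their region. Thalamus markers were high in brainstem of wild-type mouse 7267055 and SCA3 mice 9083514 and 9083515, and in striatum of wild-type mice 7267058 and 7267059. Granule cell markers of the cerebellum were high in brainstem of wild-type mouse 9083373 and SCA3 mouse 7267054. The genotype values most affected are also given without these libraries. RNA integrity numbers (RIN) ran from 6.3 to 7.6 in wild-type and from 7.4 to 8.0 in SCA3 brainstem, and with RIN as a covariate the brainstem log2 fold change of Car2 was -1.25.

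The coding sequences show which members keep the zinc-binding histidines. The stretch below runs, in each transcript, across the 3 codons aligned with those histidines of Car2, and these codons are in capitals. It was read from GENCODE transcripts of GRCm38, 5′ to 3′ on the coding strand, and lies on 2 neighbouring coding exons in each member shown. Car2 and Car13, both on chromosome 3, are shown for the intact pattern and Car10 and Car11 for the altered one.
Car2 (chr3:14895063-14895543, plus strand): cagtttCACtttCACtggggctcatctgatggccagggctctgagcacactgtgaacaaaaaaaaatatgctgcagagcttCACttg
Car13 (chr3:14650700-14654892, plus strand): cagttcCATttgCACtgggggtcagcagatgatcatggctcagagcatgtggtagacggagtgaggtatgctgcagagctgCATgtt
Car10 (chr11:93490600-93578674, plus strand): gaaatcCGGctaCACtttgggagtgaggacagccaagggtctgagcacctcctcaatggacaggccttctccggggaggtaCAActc
Car11 (chr7:45702542-45702841, plus strand): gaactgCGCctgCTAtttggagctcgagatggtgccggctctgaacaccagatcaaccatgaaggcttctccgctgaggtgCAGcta
Histidine is encoded by CAT or CAC. All 3 codons were histidine codons in 8 of the 11 members. Car8 kept 2 of the 3, Car10 kept 1 and Car11 kept 0, and these are the related proteins named above.

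In wild-type mice the family was distributed very unevenly over the brain. Levels are given in CPM with totals adjusted by TMM normalisation, as mean ± SD over mice, and levels of different genes are set side by side only per kilobase of exon. Regions were compared within mice by edgeR's quasi-likelihood F test with the mouse as a block, with Benjamini-Hochberg adjustment over all genes, and a pair was told apart at a false discovery rate (FDR) below 0.05. Of the 66 combinations of member and region pair, 52 were told apart. Brainstem and cerebellum were told apart for 9 of 11 members (73.5% of all genes), brainstem and cortex for 10 (65.9%), and brainstem and striatum for 9 (66.7%). Cerebellum and cortex were told apart for 8 of 11 members (69.7%), cerebellum and striatum for 10 (70.4%), and cortex and striatum for 6 (33.1%). Wild-type means below 4 CPM were held by Car13 in cortex and striatum, Car5b in cerebellum and Car15 in brainstem, so these counts are a description. In a bulk tissue sample, fewer cells of a type and less RNA per cell cannot be told apart.

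**Figure D1:**
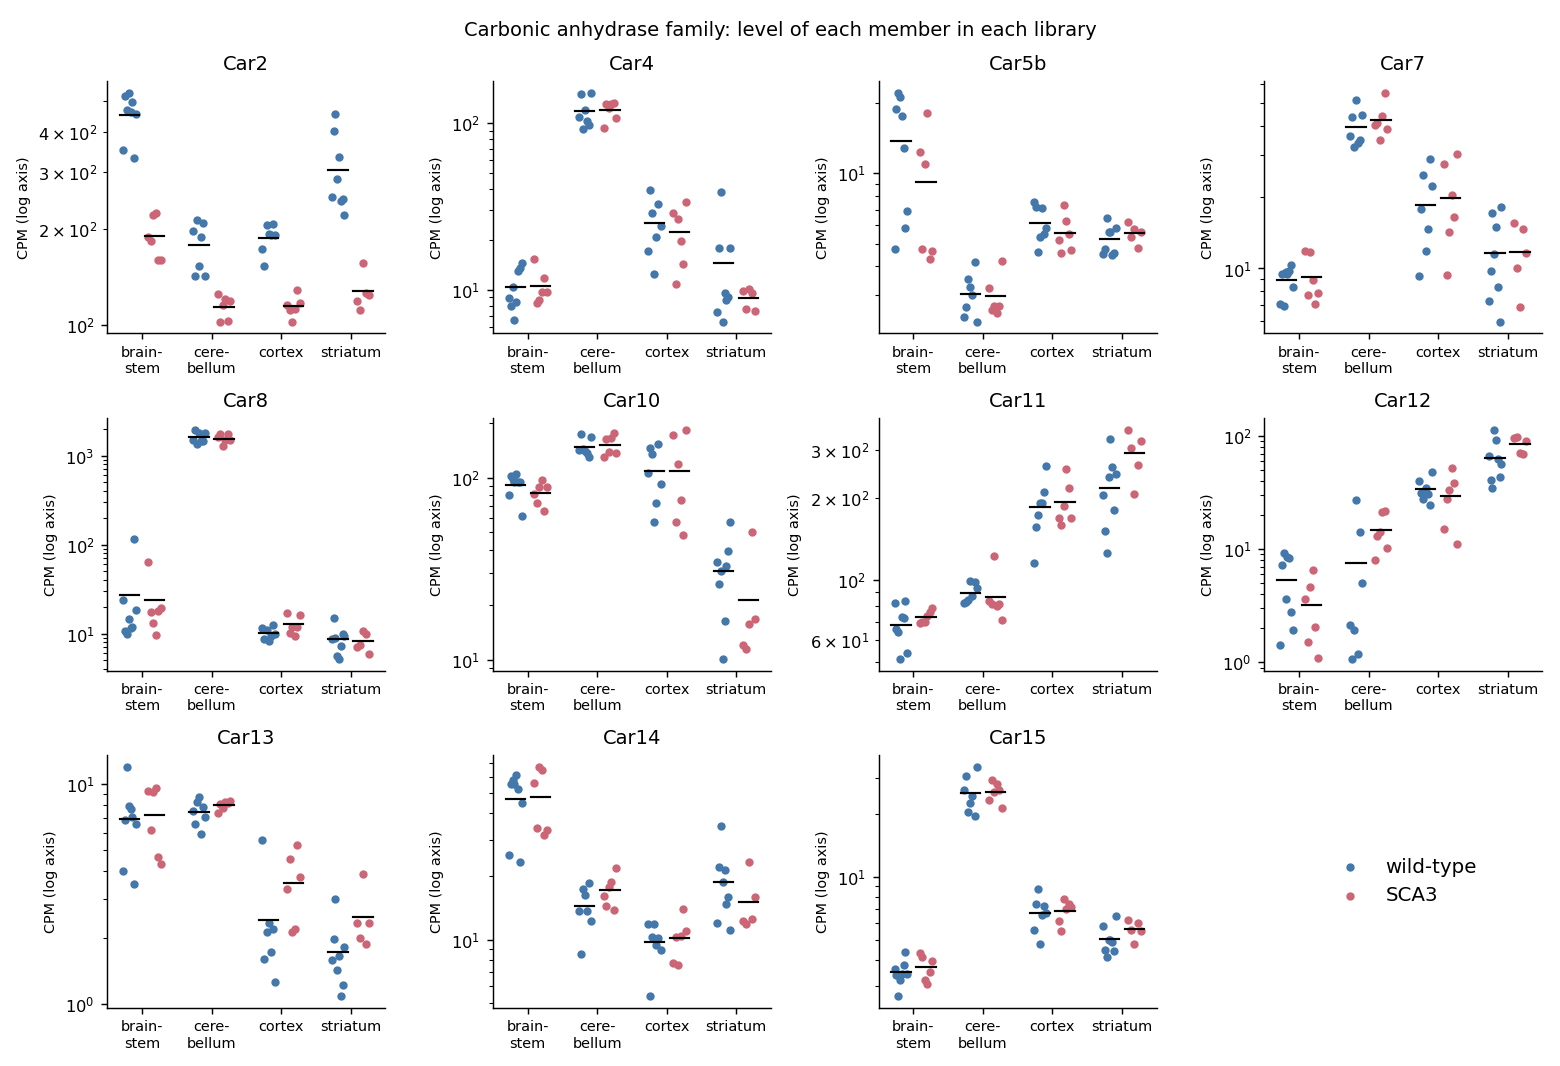
Level of each of the 11 members in each library, in CPM on a log axis, by brain region; points are mice (wild-type blue, SCA3 red) and horizontal lines are group means. Car8 has a wild-type mean of 1615 CPM in cerebellum and near 10 CPM in cortex and striatum, and Car2 is the member whose wild-type and SCA3 points separate in each region.

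Car8, which binds Itpr1, had the steepest distribution. In wild-type cerebellum it measured 1366 CPM in the lowest mouse, 1482 CPM in the median mouse and 1958 CPM in the highest, with a mean of 1615 ± 227 CPM (SD, n = 7). This was 59.4 times the mean of brainstem, the next region (112 times without wild-type mouse 9083373, a library that stood apart), and 184 times that of striatum. Cortex held 10.2 ± 1.54 CPM (n = 7) and striatum 8.76 ± 3.09 CPM (n = 8), and these neighbours in the order were not told apart (edgeR FDR = 0.657). Per kilobase, Car8 in cerebellum was above 99.8% of the genes with a length. Its partner gene Itpr1 had a mean of 4062 CPM in cerebellum, 1016 in striatum, 812 in cortex and 195 in brainstem, so below cerebellum its order was not that of Car8.

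Brainstem Car8 was decided by single libraries. The wild-type median was 13.3 CPM, but mouse 9083373 had 116 CPM while the other 7 mice had 9.98 to 23.8 CPM. Among SCA3 mice 7267054 had 63.7 CPM and the other 5 had 9.68 to 19.4 CPM. These are the same 2 libraries that stood apart in granule cell markers, with mean log2 CPM scores of 5.31 and 5.65 over the 6 of 8 markers present in the table. The remaining brainstem libraries had Car8 below 24 CPM in both genotypes.

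Car4, a membrane-anchored enzyme, was likewise highest in cerebellum, at 117 ± 24.2 CPM (n = 7), or 4.67 times its cortex level of 25.1 ± 9.38 CPM (n = 7). Brainstem (10.4 ± 2.90 CPM, n = 8) and striatum (14.4 ± 10.7 CPM, n = 8) came last and were not told apart (FDR = 0.340). Car7, a cytosolic enzyme of neurons, had the same order, with 39.4 ± 6.88 CPM in cerebellum, 18.5 ± 7.13 in cortex, 11.6 ± 4.61 in striatum and 8.90 ± 1.27 in brainstem. Only brainstem and striatum could not be told apart for Car7 (FDR = 0.168). Car15, a surface enzyme, had 25.4 ± 5.20 CPM in cerebellum, 6.70 ± 1.29 in cortex, 5.01 ± 0.783 in striatum and 3.48 ± 0.480 in brainstem, and all 6 of its region pairs were told apart. About 65.7% of the exon bases of Car15 overlap Gm20518 on the same strand, so its counts are uncertain.

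The neurexin ligands differed from each other in their distribution. Car10 was highest in cerebellum (147 ± 16.8 CPM, n = 7), followed by cortex (109 ± 37.3, n = 7) and brainstem (mean 91.4, range 61.6 to 105, n = 8), and lowest in striatum (30.9 ± 14.3, n = 8). Cortex could be told apart neither from cerebellum (FDR = 0.117) nor from brainstem (FDR = 0.454). Car11 was instead highest in striatum, with 217 ± 65.7 CPM in striatum (n = 8), 185 ± 45.3 in cortex (n = 7), 89.5 ± 7.19 in cerebellum (n = 7) and 68.3 ± 11.9 in brainstem (n = 8). Striatum and cortex were not told apart for Car11 (FDR = 0.217).

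Striatum was also the highest region of Car12, a surface enzyme, with 64.0 ± 27.0 CPM (n = 8) against 34.0 ± 8.03 CPM in cortex (n = 7), a pair not told apart (FDR = 0.199). Brainstem had 5.40 ± 3.27 CPM and cerebellum 7.58 ± 9.92 CPM. The cerebellum value covered mice from 1.07 to 27.5 CPM, the widest relative spread of any member and region in wild-type mice besides Car8 in brainstem.

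Car2, Car5b and Car14 were highest in brainstem. Car14, a surface enzyme, had 47.0 ± 14.7 CPM there (n = 8) against 18.9 ± 7.69 in striatum, 14.4 ± 3.47 in cerebellum and 9.68 ± 2.21 in cortex. Cerebellum was told apart neither from striatum (FDR = 0.236) nor from cortex (FDR = 0.0565) for Car14. An antisense gene, Aph1a, overlaps 17.5% of the exon bases of Car14, and the counting used no strand. The mitochondrial Car5b had 13.8 ± 7.18 CPM in brainstem, 6.15 ± 1.11 in cortex, 5.22 ± 0.738 in striatum and 3.05 ± 0.662 in cerebellum. Car13, a cytosolic enzyme, had 7.43 ± 0.972 CPM in cerebellum and 6.97 ± 2.62 in brainstem, which were not told apart (FDR = 0.616), and 2.40 ± 1.46 in cortex and 1.71 ± 0.594 in striatum.

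Car2 had the highest level per kilobase of the family in wild-type brainstem (187 CPM per kilobase), with 332, 467 and 533 CPM in the lowest, median and highest wild-type mouse. Its mean was 453 ± 73.3 CPM in brainstem (n = 8), 305 ± 85.3 in striatum (n = 8), 188 ± 18.9 in cortex (n = 7) and 177 ± 30.8 in cerebellum (n = 7). Of these neighbours, brainstem was told apart from striatum (FDR = 0.000918) and striatum from cortex (FDR = 0.00192), while cortex and cerebellum were not (FDR = 0.628). Car2 contributed 67.0% ± 5.65 of the family's summed CPM per kilobase in wild-type brainstem, 45.4% ± 9.65 in striatum, 34.7% ± 3.67 in cortex and 11.4% ± 2.94 in cerebellum. In cerebellum Car8 made up 63.7% ± 2.79 of that sum, and in cortex Car11 made up 42.3% ± 5.88.

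The question for SCA3 against wild-type was which members changed with the transgene, and in which regions. Car2 fell in all 4 regions, to 41.7% of wild-type in brainstem and striatum, 64.1% in cerebellum and 60.9% in cortex by the fitted fold changes. No other member passed the test in any region. Differences were fitted by edgeR's likelihood ratio test over all libraries and genes, as log2 of SCA3 over wild-type with its standard error (SE).

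Brainstem Car2 lay at 159, 185 and 224 CPM in the lowest, median and highest SCA3 mouse, below the lowest wild-type mouse at 332 CPM. The log2 fold change was -1.26 (SE 0.13). In striatum the 5 SCA3 mice had 111, 119, 124, 126 and 156 CPM, against 221, 268 and 456 CPM for the lowest, median and highest of 8 wild-type mice, a log2 fold change of -1.26 (SE 0.13). The highest wild-type striatum values belonged to libraries that stood apart in thalamus markers. Without the 7 libraries that stood apart the log2 fold change was -1.05 in striatum and -1.23 in brainstem for Car2.

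In cerebellum SCA3 mice had 102, 117 and 125 CPM of Car2 (lowest, median and highest of 6) and wild-type mice 142, 188 and 213 CPM (of 7), a log2 fold change of -0.64 (SE 0.13). In cortex SCA3 mice had 102, 114 and 128 CPM and wild-type mice 153, 191 and 207 CPM, a log2 fold change of -0.72 (SE 0.13). The groups did not overlap in any region. In SCA3 mice the regional means were 189 ± 28.5 CPM in brainstem, 127 ± 17.2 in striatum, 114 ± 9.48 in cerebellum and 114 ± 8.47 in cortex.

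**Figure D2:**
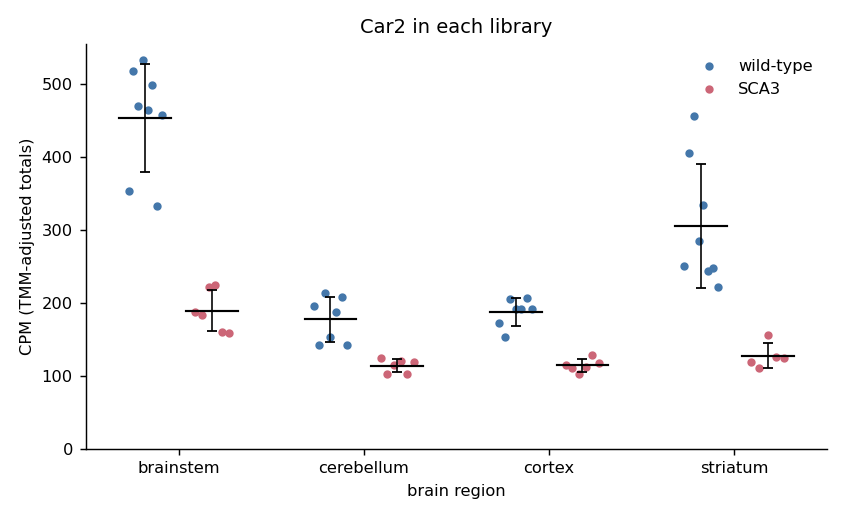
Car2 in each library, in CPM, by brain region; points are mice (wild-type blue, SCA3 red), horizontal lines are means and bars are SD. Each SCA3 mouse lies below each wild-type mouse of the same region, from at most 224 CPM against at least 332 CPM in brainstem to at most 125 CPM against at least 142 CPM in cerebellum.

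Car2 alone, 1 of the 11 members, was called at an FDR below 0.05 in each region. Of all genes, 1.92% were called in brainstem, 0.0647% in cerebellum, 0.154% in cortex and 7.54% in striatum. With 1 mouse left out these shares ran from 0.970% (without SCA3 mouse 9083514) to 2.50% (without SCA3 mouse 7267056) in brainstem. In striatum the share was 2.40% when SCA3 mouse 9083515 was left out and 14.8% when wild-type mouse 9082857 was. The shares ran from 0.0404% (without wild-type mouse 9082857) to 0.0970% (without wild-type mouse 9083371) in cerebellum and from 0.0889% (without SCA3 mouse 9083514) to 0.226% (without SCA3 mouse 9082853) in cortex. Car2 was also the 1 member whose CPM ranges did not overlap between genotypes, against 1.38% of all genes in brainstem, 0.234% in cerebellum, 0.251% in cortex and 0.655% in striatum. Ranges with SCA3 lower in all 4 regions were found for 0.0162% of genes, which are 2 genes, Car2 and Il33. Since the family was chosen with Car2 known, nothing is read from these counts. In the combined test of the genotype effect over all regions 1 of 11 members was called (4.73% of all genes). In the test for a genotype effect that differs between regions 0 of 11 were called (0.218% of all genes), with 1 member at an unadjusted p below 0.05. With 1 mouse left out the share of all genes ran from 2.25% (SCA3 mouse 9083515) to 8.48% (wild-type mouse 9082857) in the combined test, and from 0.0242% to 2.13% with the same mice for region dependence. The test for region dependence called Car2 with DESeq2, with the series of animal numbers as covariate, and without wild-type mouse 7267055, 9082857 or 9083373 or SCA3 mouse 9082853.

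The Car2 difference was also taken within series of mice, defined by the leading digits of the animal numbers. The series are called A (that of mouse 7267055), B (9083371) and C (9082853). In series B wild-type mice were numbered 9083371 to 9083375 and were 75 weeks old. Its SCA3 mice were numbered 9083513 to 9083515 and were 74 weeks old, so genotype cannot be told apart from these there. In brainstem the log2 ratio of the means was -1.27 in each of the 3 series. In striatum it was -1.69 in series A (3 wild-type and 2 SCA3 mice), -1.06 in series B (4 and 2) and -0.87 in series C (1 and 1). The striatum value of series A rested on 2 wild-type libraries that stood apart, 7267058 and 7267059, and was -1.13 without them. In brainstem it was -1.44, -1.08 and -1.27 in series A, B and C without the libraries that stood apart, with 1 SCA3 mouse left in each series. In cerebellum it was -0.58, -0.60 and -0.88, and in cortex -0.53, -0.72 and -1.01, in series A, B and C. In the mice of series B alone, a setting chosen after seeing the data, the cerebellum difference of Car2 was -0.60 and was not called.

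Some oligodendrocyte markers were also lower, in brainstem and striatum. All 18 listed markers of mature oligodendrocytes, with Car2 left out of the list, were in the table. Of all genes 1.92% were called in brainstem and 7.54% in striatum. In brainstem 5 of 18 fell and 0 rose, with a median log2 fold change of -0.47 beside 0.003 over all genes. Among them were Aspa (-0.90, SE 0.20), Ugt8a (-0.83, SE 0.19), Mal (-0.65, SE 0.18) and Klk6 (-1.20, SE 0.34). In striatum 8 of 18 fell and 0 rose, with a median of -0.48, among them Mal (-0.80, SE 0.19). Without the libraries that stood apart, an alternative chosen after seeing the data, 1 of 18 was called lower in brainstem (median -0.45), and in striatum 1 was called lower and 1 higher (median -0.18). That fit left out 3 of the 6 SCA3 brainstem libraries. It called 0.703% of all genes in brainstem and 2.61% in striatum, so calls fell over all genes too. With RIN as a covariate 3 of 18 were called lower in brainstem (median -0.43), beside 1.43% of all genes. In cerebellum and cortex edgeR called 0 of 18, with medians of -0.17 and -0.00, and 4 and 1 had an unadjusted p below 0.05. Without the libraries that stood apart 1 was called lower in cerebellum (0.137% of all genes called) and 1 higher in cortex (0.477%).

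The family was chosen with the fall of Car2 known, so all comparisons of Car2 with the markers here are a description. Car2 had a lower log2 fold change than each of the 18 markers in each region. The lowest marker came within 1 SE of Car2 in each, with Klk6 at -1.20 in brainstem, -1.13 in striatum and -0.71 in cortex and Aspa at -0.62 in cerebellum, while the highest marker was at 0.09 to 0.61. The marker score, the mean log2 CPM of the 18 genes, ranged from 7.71 to 8.69 in wild-type and from 7.59 to 8.30 in SCA3 brainstem. It ranged from 7.03 to 8.60 and from 6.97 to 7.68 in striatum, from 6.24 to 6.88 and from 6.06 to 6.69 in cerebellum, and from 5.65 to 6.76 and from 5.93 to 6.68 in cortex, so the genotypes overlapped in score everywhere. The difference between log2 Car2 and the score did not overlap: in brainstem it was 0.19 to 0.66 in wild-type and -0.49 to -0.25 in SCA3 mice. In striatum it was 0.24 to 0.79 against -0.39 to 0.01, in cerebellum 0.68 to 1.02 against 0.20 to 0.62, and in cortex 0.93 to 1.61 against 0.27 to 0.74. With the score as a covariate in fits of 1 region alone, the log2 fold change of Car2 was -0.98 in brainstem, -0.48 in cerebellum, -0.71 in cortex and -0.94 in striatum. Of 8 precursor markers 2 were called higher in brainstem (1.92% of all genes called), Olig1 (0.56, SE 0.14) and Olig2 (0.49, SE 0.14). Without the libraries that stood apart 0 of 8 were called (0.703% of all genes), with Olig1 at 0.48 and Olig2 at 0.46. With RIN as a covariate 1 of 8 was called, Olig1 (0.53), while Olig2 was at 0.46.

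**Figure D3:**
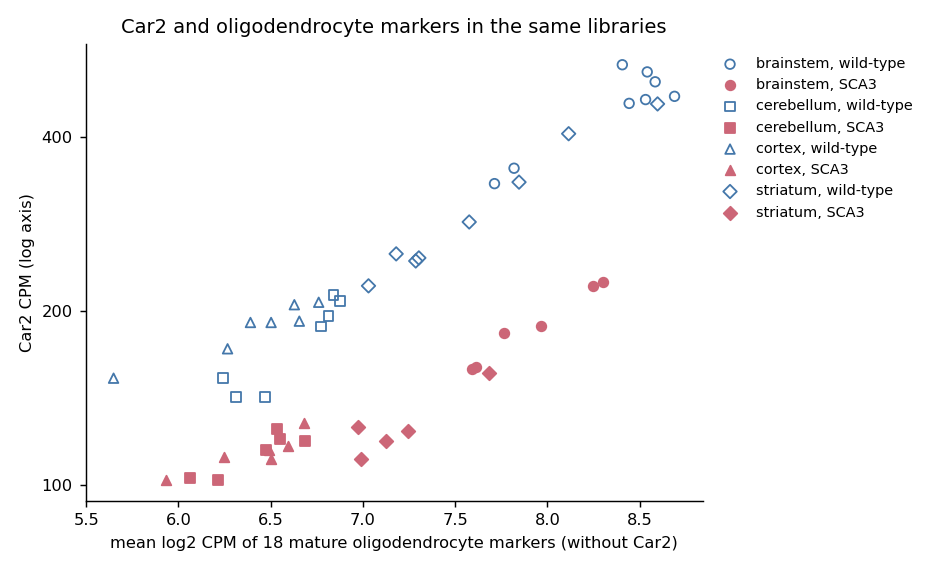
Car2 in each library (CPM, log axis) against the mean log2 CPM of 18 mature oligodendrocyte markers in the same library; symbols give the region, open blue wild-type and filled red SCA3. Within each region Car2 is higher in libraries with a higher score in both genotypes, and the SCA3 libraries lie below the wild-type libraries of similar score.

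The other 10 members gave 40 regional comparisons, none of which passed edgeR's test. Their log2 fold changes ran from -0.74 to 0.96 with a median of 0.03, and 5 of the 40 had an unadjusted p below 0.05, against 10.6% of all comparisons of a gene in a region.

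None of the related proteins without enzyme activity was called in any region. Car8 in cerebellum was at 1556 ± 173 CPM in SCA3 (n = 6) against 1615 ± 227 CPM (n = 7), a log2 fold change of -0.05 (SE 0.37), and in cortex the log2 fold change was 0.32 (SE 0.38). Its fold change in brainstem was -0.20 (SE 0.36), but 0.70 without wild-type mouse 9083373, -0.80 without SCA3 mouse 7267054 and 0.07 without all libraries that stood apart. Car10 and Car11 in cerebellum, cortex and brainstem had log2 fold changes between -0.15 and 0.10.

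In striatum Car11 and Car10 showed larger values, in opposite directions. Car11 was at 206, 265, 306, 323 and 356 CPM in the 5 SCA3 mice against 125, 222 and 329 CPM for the lowest, median and highest of 8 wild-type mice, so the groups overlapped. Its log2 fold change was 0.42 (SE 0.16, FDR = 0.0794), and 0.26 without the libraries that stood apart. It passed the test without SCA3 mouse 9082853 (0.53, FDR = 0.0232), without wild-type mouse 9083371 (0.54, FDR = 0.0138) and with the series of animal numbers as covariate (0.47, FDR = 0.0347).

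Car10 was at 11.5, 12.0, 15.8, 16.8 and 50.2 CPM in SCA3 striatum against 10.1, 31.7 and 56.9 CPM for the lowest, median and highest wild-type mouse. A single library, of mouse 9083514, had 50.2 CPM and decided the value: the log2 fold change was -0.54 (SE 0.30, FDR = 0.266) with it and -1.14 (FDR = 0.00352) without it. Striatal projection neuron markers, 10 of 11 in the table, ranged in score from 7.21 to 9.30 in wild-type and from 8.66 to 9.21 in SCA3 striatum, and their part in the values of Car10 and Car11 was not tested.

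Among the other enzymes the groups overlapped in each region. Car4 in striatum had 7.48 to 10.1 CPM in SCA3 mice and 6.42, 9.36 and 38.6 CPM in the lowest, median and highest wild-type mouse. The log2 fold change was -0.69 (SE 0.29, FDR = 0.127), but -0.14 without the libraries that stood apart and -0.30 in the mildest of the fits that left out 1 mouse. The 38.6 CPM belonged to wild-type mouse 7267059, whose striatum library had the highest thalamus score of its region (7.57). Car4 passed the test without wild-type mouse 9082857 (-0.80, FDR = 0.0454).

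Car13 had positive log2 fold changes in all 4 regions, with 0.54 (SE 0.27, FDR = 0.199) in striatum and 0.57 (SE 0.26, FDR = 1) in cortex. The cortex value was 0.92 (FDR = 0.0746) without wild-type mouse 7267055, which had 5.59 CPM, and the striatum value 0.33 without SCA3 mouse 9082853. Its levels there were low, at 2.49 ± 0.821 against 1.71 ± 0.594 CPM in striatum and 3.54 ± 1.27 against 2.40 ± 1.46 CPM in cortex. With a marker score as a covariate in fits of 1 region alone Car13 passed the test in striatum (0.79 with the thalamus score and 0.86 with the mature oligodendrocyte score) and in brainstem (0.71 with the oligodendrocyte score). Car14 in brainstem likewise was 0.67 with the oligodendrocyte score and was called. In fits of 1 region alone without a score, Car13 was at 0.54 in striatum and 0.05 in brainstem and Car14 at 0.02 in brainstem, none of them called. In the combined test Car13 was called without wild-type mouse 7267055. Car5b in brainstem had a log2 fold change of -0.58 (SE 0.26, FDR = 0.299). With 1 mouse left out it ran from -0.89 to -0.44, with edgeR FDRs from 0.0579 to 0.794. Car7 and Car15 had values between 0.01 and 0.17 in every region.

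**Figure D4:**
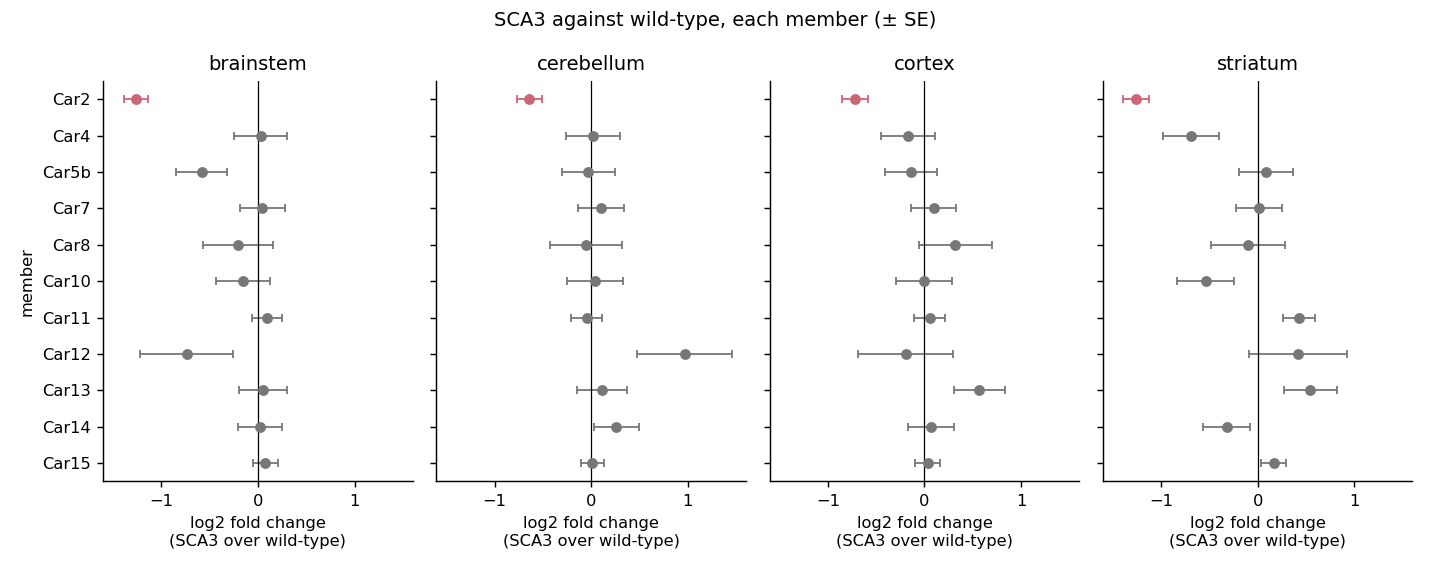
Log2 fold change of SCA3 over wild-type for each member in each region; points are edgeR estimates, bars are SE, red marks an FDR below 0.05. Car2 is the one member marked, from -0.64 in cerebellum to -1.26 in brainstem and striatum.

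Cerebellar Car12 moved with markers of the choroid plexus, the tissue that makes cerebrospinal fluid and borders the cerebellum. SCA3 mice had 8.10, 10.3, 13.1, 14.3, 21.3 and 21.7 CPM, and wild-type mice 1.07, 1.19, 1.94, 2.15, 5.04, 14.2 and 27.5 CPM. The log2 fold change was 0.96 (SE 0.49, FDR = 1.00) with edgeR, 1.89 with limma-voom on the same libraries, and 1.80 with edgeR without wild-type mouse 9083371, which had the highest level, and in that fit Car12 was called in the combined test. The choroid plexus score, over 4 of 10 markers (Ttr, Kl, Clic6 and Enpp2), ranged from 3.28 to 8.23 in wild-type and from 6.83 to 8.18 in SCA3 cerebellum. With this score as a covariate, an alternative chosen after seeing the data, the log2 fold change of Car12 was -0.09. The defining markers Folr1, Kcnj13, Otx2, Aqp1, Slc4a5 and Cldn2 were not analysed here.

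**Figure D5:**
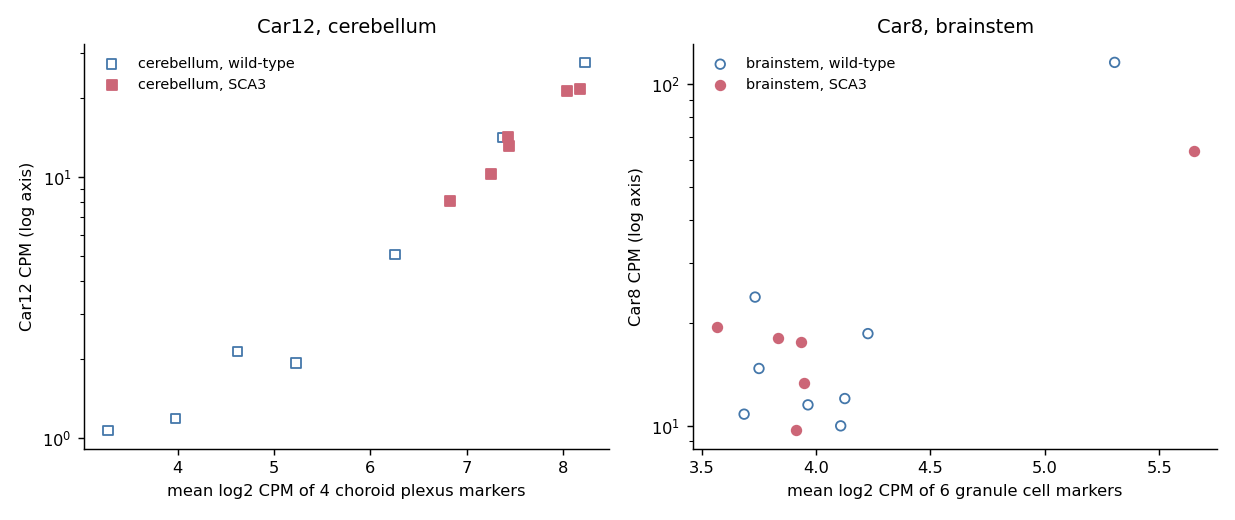
Left, Car12 in cerebellum libraries (CPM, log axis) against the mean log2 CPM of 4 choroid plexus markers; right, Car8 in brainstem libraries against the mean log2 CPM of 6 granule cell markers; open blue wild-type, filled red SCA3. Car12 is higher in libraries with a higher choroid plexus score in both genotypes, and the 2 brainstem libraries above 60 CPM of Car8 are those with granule cell scores of 5.31 and 5.65.

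The summed CPM per kilobase of the family was lower in SCA3 brainstem, at 169 ± 20.7 (n = 6) against 278 ± 27.6 (n = 8). Without Car2 the sum was 90.6 ± 11.5 against 90.8 ± 11.3. In cerebellum the sum of all members was 618 ± 41.8 (n = 6) against 656 ± 63.5 (n = 7). In cortex it was 198 ± 21.3 (n = 6) against 225 ± 30.3 (n = 7). In striatum the sum of all members was 239 ± 23.8 (n = 5) against 276 ± 37.6 (n = 8), and without Car2 187 ± 29.3 against 150 ± 31.9. Car11 took 62.7% ± 6.98 of the striatal sum in SCA3 mice and 40.9% ± 10.8 in wild-type mice, and Car2 22.3% ± 5.19 and 45.4% ± 9.65. Without the 2 wild-type striatum libraries that stood apart, the wild-type shares were 46.5% ± 3.60 for Car11 and 40.5% ± 3.71 for Car2, and the wild-type sum without Car2 was 161 ± 29.1 (n = 6).

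Genes that work beside the family were examined from a list of 36 bicarbonate, proton and lactate transporters, acid-sensing channels and receptors, 24 of them in the table. In brainstem 1 of 24 was called, beside 1.92% of all genes. It was Slc4a4 (-0.45, SE 0.10, FDR = 0.00243), the sodium bicarbonate cotransporter of astrocytes, at 351 CPM in SCA3 against 479 CPM. In striatum 2 of 24 were called, the proton-sensing receptor Gpr4 (-0.74, SE 0.18, FDR = 0.00476) and the acid-sensing channel Asic2 (-0.53, SE 0.14, FDR = 0.00893), beside 7.54% of all genes in that region. Without the libraries that stood apart Slc4a4 (-0.45) and Asic2 (-0.42) were not called, and Gpr4 (-0.73) was. That fit called 0.703% of all genes in brainstem and 2.61% in striatum. In cerebellum and cortex edgeR called 0 of 24, with 1 and 0 at an unadjusted p below 0.05. The list's median log2 fold change was 0.02 in brainstem and -0.04 in striatum, beside 0.003 and -0.003 over all genes. Astrocyte markers also were lower, with 4 of 10 called lower in brainstem (1.92% of all genes called) and 5 of 10 in striatum (7.54%). Without the libraries that stood apart 4 astrocyte markers were called lower in brainstem (median -0.39), beside 0.703% of all genes. In striatum 0 were called lower and 1 higher (median -0.22), beside 2.61% of all genes. With RIN as a covariate 2 astrocyte markers were called lower in brainstem (median -0.26), beside 1.43% of all genes. The part of the astrocyte markers in the Slc4a4 value was not tested. Of the 6 neurexin and IP3 receptor genes, partners of Car8, Car10 and Car11, 0 were called in any region by edgeR, with 1 comparison at an unadjusted p below 0.05. Itpr1 was at 1426 CPM in SCA3 against 1016 CPM in wild-type striatum (0.49, SE 0.28, FDR = 0.264) and at 3862 against 4062 CPM in cerebellum (-0.07, SE 0.27).

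The genes whose levels were most like each member's were found by Pearson's correlation of log2 CPM over the 53 libraries, which share regions and mice, so the values are a description. Over the levels, the nearest genes to Car2 were Serpinb1a (r = 0.94), Qdpr (r = 0.94) and Il33 (r = 0.93). Over the deviations from the 8 group means, which remove region and genotype, they were Arsg (r = 0.93), Plekhb1 (r = 0.92) and the myelin gene Mog (r = 0.92). For Car14 they were Spg20 (r = 0.89) and Klk6 (r = 0.88), an oligodendrocyte marker, and for Car8 Cbln3 (r = 0.71), a granule cell marker. The levels of Car8 were nearest to Cep76 (r = 0.99), and those of Car15 to Dgkd (r = 0.99).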

How the data were processed

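The deposited values were raw read counts per gene, in whole numbers, 1 column per library. Per the labels and methods, the authors made poly-A libraries without strand information, aligned reads to GRCm38 with STAR 2.3.0e keeping unique alignments, counted them per gene with HTSeq 0.6.1, and kept genes with a mean above 4 CPM. Strand could thus not part overlapping genes, and reads matching several places were lost. From these counts, edgeR 4.0.16 in R 4.3.3 with TMM normalisation gave the likelihood ratio tests of SCA3 against wild-type (8 groups, 1 fit of 53 libraries) and the quasi-likelihood F test of region pairs, with Benjamini-Hochberg adjustment over 12372 genes. Log2 CPM used the TMM library sizes and a prior count of 2. The same mouse gave the libraries of several regions, so region pairs were paired by mouse; the correlation within a mouse in a blocked fit was 0.14. Libraries of a group came from separate mice. Alternatives were DESeq2 1.42.0, limma 3.58.1 voom, other normalisation, filters, covariates and mice left out. The fits were tested on simulated data. Positions come from GENCODE and RefSeq annotation of GRCm38.p6. The members, marker lists and tests were chosen with earlier results of these data known, and the genes named are the members, genes of the partner and marker lists, and some of the genes most like a member. The plan expected 5 members, and the rule found 11. Of the 7 red blood cell genes listed, 0 were in the table. Some items withheld from this text are not reported here.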

Additional observations from a re-analysis of the deposited data

Results flagged for a closer look

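Within each group the highest and lowest mouse were compared with the others by Dixon's gap test at its 95% critical value. Of 88 groups of a member, region and genotype, 10 held such a mouse, always on the high side. The nominal rate of 1 in 20 holds for normal values and separate groups. CPM were used without logs and members share libraries, so the count is a description. In brainstem, Car8 was at 116 CPM in wild-type mouse 9083373 (others up to 23.8 CPM) and at 63.7 CPM in SCA3 mouse 7267054 (others up to 19.4 CPM). In striatum, wild-type mouse 7267059 was high in Car4 (38.6 CPM, others up to 17.9), Car13 (3.00 CPM, others up to 1.96) and Car14 (35.0 CPM, others up to 22.3), and wild-type mouse 7267058 in Car8 (15.1 CPM, others up to 9.77). Both striatum libraries stood apart in thalamus markers. In SCA3 striatum, Car10 was at 50.2 CPM in mouse 9083514 (others up to 16.8) and Car13 at 3.90 CPM in mouse 9082853 (others up to 2.34). Car11 was at 122 CPM in cerebellum of SCA3 mouse 9082853 (others up to 83.8), and Car13 at 5.59 CPM in cortex of wild-type mouse 7267055 (others up to 2.34). The Car2 groups held no such mouse.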

How the results depend on the processing

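Across 1276 combinations of a member's log2 fold change and an alternative setting, the direction turned in 100, all of them folds that had not passed the test, and the largest value after turning was 0.701. The 116 combinations of Car2 kept their direction. Car2 lost its call in 1 of them, in cerebellum in series B, the most numerous mice, fitted alone, a setting chosen after seeing the data, where 0 members were called; that fit held 3 SCA3 and 4 wild-type cerebellum libraries, and the cause was not tested. With the mature oligodendrocyte score in fits of 1 region alone brainstem counted 3 members (10.8% of all genes were called) and striatum 2 (3.08%). Striatum also counted 2 with the thalamus score (1.03%) and with the series as covariate (9.25%). Region dependence counted 1 member with DESeq2 (0.259% of all genes) and with the series covariate (0.226%). Leaving out 1 mouse gave 1 to 2 members in striatum (2.40% to 14.8% of all genes) and in the combined test (2.25% to 8.48%) and 0 to 1 for region dependence (0.0242% to 2.13%). In brainstem Car8 turned to 0.036 with limma-voom, 0.032 with the mouse as a replicate block and 0.068 without the libraries that stood apart, and ran from -0.799 to 0.701 with 1 mouse left out. Car5b in brainstem turned to 0.34 with the oligodendrocyte score, and Car12 in cerebellum to -0.092 with the choroid plexus score. Car13 and Car14 in brainstem turned to -0.009 and -0.079 in series B alone, and ran from -0.054 to 0.208 and from -0.105 to 0.108 with 1 mouse left out. The blocked fit changed no call of a member in a region. For region pairs 53 of 66 were told apart with no replicate block against 52 with it, and 50 to 53 with 1 mouse left out. With 5 to 8 mice a group, the SE of a member's log2 fold change was 0.12 to 0.50, which limits what these folds can show. Each SE used 1 dispersion per gene shared by all 8 groups, so it does not measure the spread of a single region. The SE of Car8 in cerebellum (0.37) thus also takes in its spread in brainstem.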

Other observations

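Marker lists of further cell types gave these counts for SCA3 against wild-type, by edgeR's likelihood ratio test. Astrocyte markers had median log2 fold changes of -0.37 in brainstem and -0.34 in striatum, and the precursor marker Vcan was higher in striatum (0.41). Of 10 microglia markers, 1 was lower in brainstem, P2ry12. In striatum 6 of 10 measured thalamus markers were lower (median -1.49). So were 2 of 6 measured genes of the cerebellar granule cell list, Zic1 (-2.17) and Zic2 (-2.13). Also lower were 1 of 8 measured genes of the Purkinje cell list (Slc1a6) and 1 of 9 general neuron markers (Stmn2). These 2 lists were made for cells of the cerebellum, and which cells held Zic1, Zic2 and Slc1a6 in striatum was not tested. The wild-type striatum scores for thalamus ran from 3.40 to 7.57 and those of SCA3 mice from 3.39 to 5.01, with the 2 wild-type libraries that stood apart at 6.93 and 7.57. The lists of brain endothelium (12 genes) and cortical glutamatergic neurons (6 of 8 measured) held no called gene in any region, with 1 of 48 and 3 of 24 comparisons of a gene in a region at an unadjusted p below 0.05. Without the libraries that stood apart, an alternative chosen after seeing the data, 1 of 10 thalamus markers was called lower in striatum (median -0.02), Zic1, Zic2, Slc1a6 and Vcan were called, and P2ry12 (-0.42, from -0.37) and Stmn2 (-0.47, from -0.60) were not. That fit called 0.703% of all genes in brainstem and 2.61% in striatum, against 1.92% and 7.54% in the main fit.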
